A study of Mus musculus with 16 samples.

Results

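The cytoplasmic ribosomal protein genes were examined in ATAC-Seq peak lists of mouse hematopoietic stem and progenitor cells (HSPCs). The members were the protein coding genes on chromosomes 1 to 19 whose symbols are Rpl or Rps followed by a digit, together with Rplp0, Rplp1, Rplp2 and Rpsa. Paralogs, pseudogenes and the Rps6k kinases were left out, which gave 73 of 20722 protein coding genes, 43 for the large and 30 for the small subunit. ATAC-Seq uses the Tn5 transposase to cut open chromatin, and each library was available as a list of accessible intervals (peaks).

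There were 16 libraries, 4 for each of 4 genotypes. WT mice were Ep300 fl/fl without Cre, P300KO mice were Mx1-Cre;Ep300 fl/fl, TET2KO mice were Ep300 fl/fl;Tet2-/-, and P300KO_TET2KO mice were Mx1-Cre;Ep300 fl/fl;Tet2-/-. All 4 groups carried the floxed Ep300 alleles and received poly(I:C) as young adults, and the labels give the mice of a library as matched in age. The methods place experiments at a set time after the injections unless stated otherwise. Mx1-Cre is induced by interferon in blood cells and in other tissues, and only the groups without p300 carried it, so Cre and the loss of p300 cannot be told apart. Tet2 was absent from the germ line onward. Each library held pooled HSPCs from 2 mice, and the cells were frozen, thawed and cleared of dead cells before the assay. Replicates 1 and 2 of every genotype (deposit set 1) have labels that name a list combined over the genotype, and those of replicates 3 and 4 (deposit set 2) do not. The lists held 86039 to 110055 peaks in set 1 and 130610 to 137335 in set 2. Promoter peaks were found in all 16 libraries at Kit and Flt3, which mark these progenitors, and in 15 at Ly6a. None was found at Ly6g of neutrophils or Alb of liver, and 1 library had one at Cd3e of T cells. Peaks were also found in all 16 libraries at Cdh5 of endothelium and Col1a1 of stroma, and the part of other cells in the member values was not tested.

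Ribosomal proteins assemble with ribosomal RNA into the small subunit, which reads the mRNA, and the large subunit, which joins the amino acids. Their genes are transcribed at high levels in nearly every cell, mostly from CpG-rich promoters without a TATA box, and many of their mRNAs start with a run of pyrimidines that couples translation to mTOR signaling. Blood formation is sensitive to their dose: a lost copy of RPS19, RPL5 or RPL11 among others causes Diamond-Blackfan anemia in humans, and a lost copy of RPS14 contributes to the anemia of the 5q- syndrome, a myelodysplastic disease. p300 is a histone acetyltransferase of enhancers and promoters, and Tet2 oxidizes methylated cytosine.

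Sequences of the promoters with the highest and lowest peak ranks are shown first so that both kinds can be compared. Each runs 5′ to 3′ on the strand of the gene from 120 bases before the RefSeq transcription start site (TSS) to the 10 bases from the start itself on, in GRCm38.p6 (mm10). Capitals mark a match, on either strand, to 1 of 6 strings. For Ets factors the string was CCGGAAG, and for Sp factors it was GGGCGG. NF-Y is known to bind CCAAT, which was searched as such. The TATA box was searched as TATAAA. The string for Yy1 was AAGATGGC, and the E-box was searched as CACGTG. The Rpl37 window is chr15:5116493-5116622, plus strand.
Rpl37: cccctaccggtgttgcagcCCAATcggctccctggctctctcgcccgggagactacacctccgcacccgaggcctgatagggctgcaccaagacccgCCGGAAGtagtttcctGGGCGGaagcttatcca
The Rpl15 window is chr14:18270977-18271106, minus strand.
Rpl15: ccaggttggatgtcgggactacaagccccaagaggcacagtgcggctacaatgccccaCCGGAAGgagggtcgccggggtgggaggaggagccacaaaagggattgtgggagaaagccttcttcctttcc
The Rpl37a window is chr1:72711140-72711269, plus strand.
Rpl37a: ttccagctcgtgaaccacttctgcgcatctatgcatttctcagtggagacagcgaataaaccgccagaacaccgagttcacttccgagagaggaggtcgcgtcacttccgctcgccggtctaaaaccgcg
The Rpl4 window is chr9:64173267-64173396, plus strand.
Rpl4: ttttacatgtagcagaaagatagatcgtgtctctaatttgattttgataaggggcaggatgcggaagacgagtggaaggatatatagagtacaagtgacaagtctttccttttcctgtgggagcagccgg
Rpl37 and Rpl15, the members of highest rank, each held an Ets string in this window, and Rpl37 also held an Sp and a CCAAT string. Rpl37a and Rpl4, the members of lowest rank, held none of the 6 strings. The strings did not follow the order of the ranks throughout: in the same window Rps19, which followed Rpl15 in rank, held only an Sp string, Rpl27, the next one, held none, and Rplp0 held only CCAAT. Of the 73 members, 53 had a promoter in the RefSeq table. The ranked regions were placed on the TSS of the GENCODE annotation instead. The RefSeq start lay 32 bp from that TSS at Rpl37, 81 at Rpl15, 221 at Rps19, 30 at Rpl37a and 12 at Rpl4. A window can therefore miss sequence near the TSS used for the ranks.

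Over all 73 members, the strings were counted in the reference from 250 bases before to 50 after the GENCODE TSS, and the same was done for all 20722 protein coding genes. The Ets string stood in 24 of 73 member promoters (32.9%) and in 11.4% of all. An oligopyrimidine start, a C at the TSS followed by at least 4 pyrimidines, was found in 8 members (11.0%) and in 2.28% of all promoters. This count depends on the exact start base of GENCODE. The RefSeq start lay 0 bp from it at Rplp0 but 81 bp at Rpl15 and 301 bp at Rps10. At their RefSeq starts Rpl15 and Rps10 both had such a run, so the count can miss members. The Yy1 string was in 5 members (6.85%, all promoters 3.10%) and the E-box in 9 (12.3%, all 7.77%). The Sp string was in 47.9% of members and in 46.2% of all promoters, or 54.5% of the 17325 genes that had a main region like every member. The TATA string was in 11.0% of members, in 12.7% of all promoters and in 9.31% of those with a main region, so that for both strings the direction depended on the background. CCAAT was in 30.1% of members, against 38.2% of all promoters and 37.0% of those with a main region, where the Ets string was in 13.3%. The median GC content was 56.0% in members, 56.3% in all promoters and 58.7% in those with a main region. The median ratio of observed to expected CpG was 0.856, 0.573 and 0.671 in the same order. On the scale explained next, the median rank score of members with and without a string was 5.01 and 4.81 for Ets, 5.28 and 4.55 for Sp, 5.21 and 4.63 for CCAAT, 5.17 and 4.81 for TATA, and 4.90 and 4.82 for the E-box. It was lower with than without the Yy1 string (4.47 and 4.89) and the oligopyrimidine start at the GENCODE TSS (4.54 and 4.88). These medians were not tested. A string match is a description of the sequence and does not show binding.

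Read counts were not part of the files used, so strength was taken from the order of peaks within each list. Peaks that overlapped in any of the lists were joined, which gave 296215 regions. In each library a region received a rank score, minus log2 of the share of the list's peaks that ranked as high or higher by −log10 p. A score of 1 therefore marks the strongest 50% of a list, each further unit a share 2 times smaller, and a region without a peak scored 0. The main promoter region of a gene was the region that covered its primary TSS, the start of its top-ranked annotated protein coding transcript. Where no region covered it, the nearest one within 3 kb was taken. The 3397 protein coding genes without such a region are left out of the scores given for all protein coding genes. Other regions within 3 kb of any TSS of a member were called flanking regions.

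Every one of the 73 main promoter regions covered the annotated TSS and had a peak in 16 of 16 libraries. Among the main regions of all protein coding genes 71.1% had a peak in every library, and among all merged regions 13.3% did. The median of the members' mean scores was 4.88, which corresponds to the strongest 3.39% of a list. Over the main regions of all protein coding genes it was 3.03 (12.2%). All 73 members lay above the median of those regions and 41 lay above their upper quartile. The lowest score of any member in any library was 2.87, still within the strongest 13.7% of that list. The peaks were wide (median 938 bp) and strongly enriched over local background (median 16.8-fold, from 6.42 to 24.2). Their summits centered 21 bp upstream of the TSS at the median, and 66 of 73 lay within 150 bp of it.

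**Figure D1:**
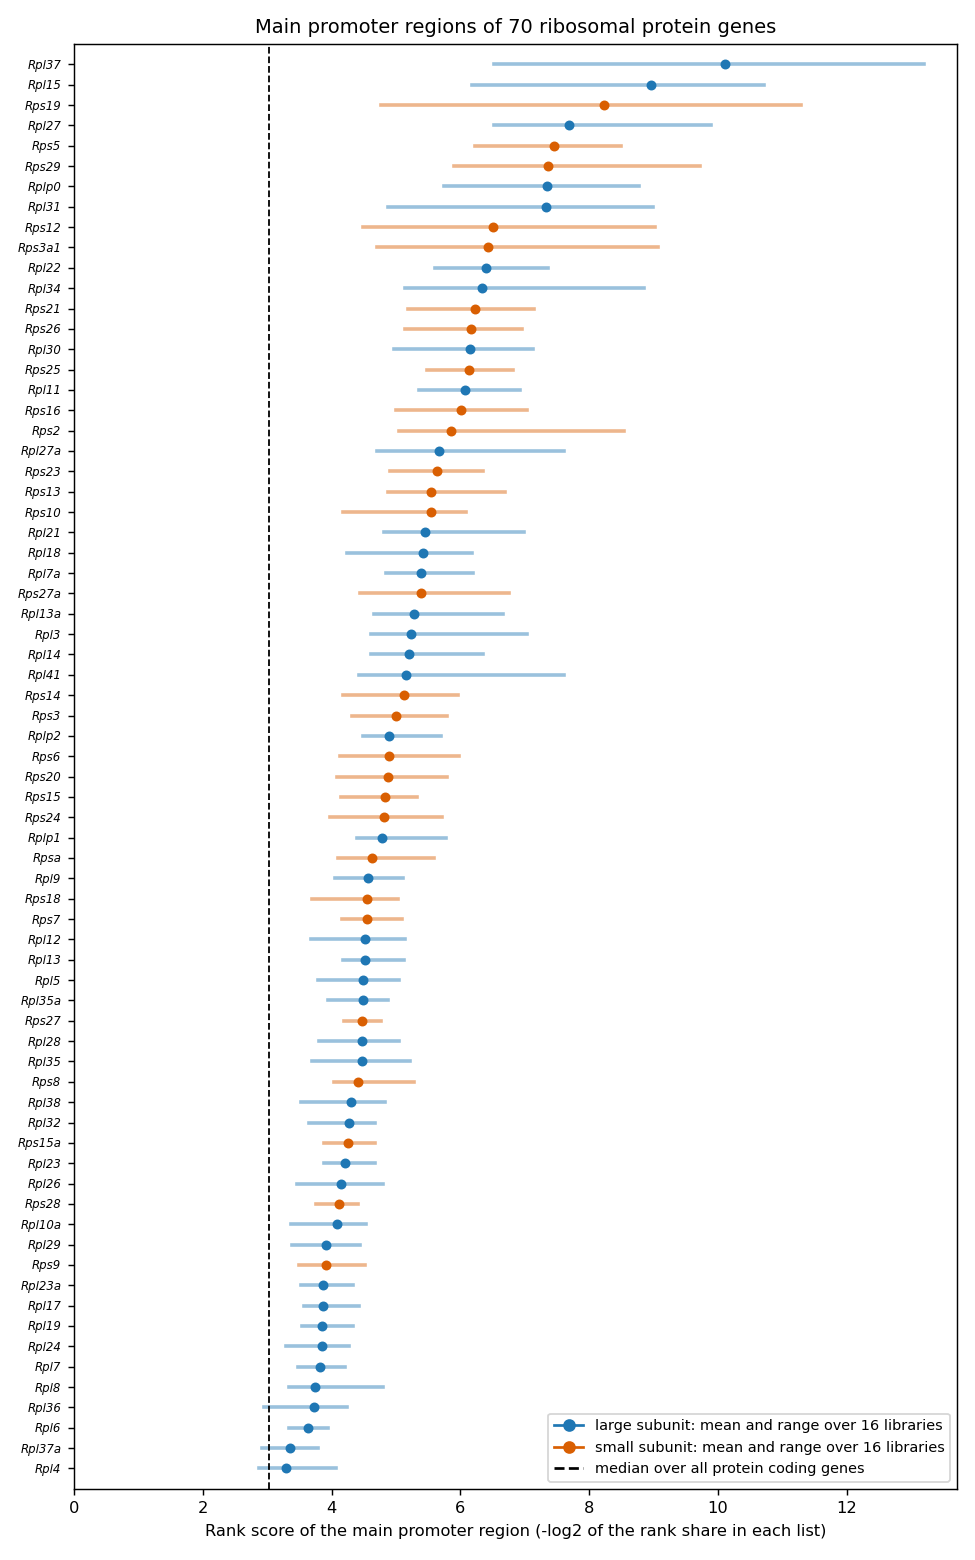
Rank score of the main promoter region of 70 of the 73 ribosomal protein genes, with points at the mean and bars from the lowest to the highest of 16 libraries (blue, large subunit; orange, small subunit; dashed line, median over the main regions of all protein coding genes). The means run from 3.29 at Rpl4 to 10.11 at Rpl37, and the ranges widen toward the top.

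The members differed widely among themselves. Rpl37, a zinc-binding protein of the large subunit, led with a mean score of 10.11, the strongest 0.0907% of a list, and held places between 14 and 1039. Rpl15, mutated in some patients with Diamond-Blackfan anemia, followed with 8.96 (lowest 6.17, highest 10.71), and Rps19, the gene most often mutated in that disease, with 8.24 (4.77 to 11.29). Rpl27 (7.68), of the large subunit, came next. At the other end stood Rpl4 with 3.29 (2.87 to 4.07) and Rpl37a with 3.35, and Rpl6 with 3.63 and Rpl36 with 3.73 were also among the lowest. The median was 4.52 over the large and 5.06 over the small subunit. A TSS of another protein coding gene was also covered by 14 of the 73 main regions, among them Rpl15 with Nkiras1 and Rpl4 with Zwilch. Their median was 4.55, against 4.88 for the 59 others, and they included both a very strong and the weakest member.

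The scores of the strongest members also varied most between libraries. After genotype and deposit set were fitted, the median residual SD (11 degrees of freedom) was 0.95 over the 9 members with mean scores above 7 and 0.21 over the 13 below 4. It reached 1.48 at Rps19 and was 0.14 at Rpl7. A given change in place counts for more on this scale near the top of a list than further down, so the order among neighbours there did not exceed their spread. Rpl27 and Rps29, for example, with means of 7.68 and 7.36, had residual SDs of 1.2 and 0.62, larger than the gap between their means.

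The proteins of the stalk, which recruits elongation factors to the large subunit, were unequal. Rplp0, its base, had a mean score of 7.35, while Rplp1 and Rplp2, its acidic arms, had 4.78 and 4.90. The gap of Rplp0 to Rplp2 (residual SDs 0.89 and 0.26) was found in every library, since the lowest score of Rplp0 (5.75) exceeded the highest of Rplp2 (5.69). Rpsa, a small subunit protein also known as the laminin receptor, had 4.63. Rpl5 and Rpl11, which form the 5S particle with 5S rRNA and bind Mdm2 when ribosome assembly fails, scored 4.49 and 6.07. Among the other genes of Diamond-Blackfan anemia, all parts of their subunits, the mean scores were 7.36 for Rps29, 6.16 for Rps26, 5.55 for Rps10, 4.81 for Rps24, 4.54 for Rps7, 4.49 for Rpl35a and 4.15 for Rpl26. Rps14 scored 5.12. The genes named from anemia ran from 4.15 at Rpl26 to 8.96 at Rpl15, and none of them was among the 13 members below 4.

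Other genes of protein synthesis ranked in the same range. Fau, which encodes a ribosomal protein fused to a ubiquitin-like part, scored 4.46. The 15 genes of translation factors and similar pyrimidine-start mRNAs had a median of 5.12, the 30 genes of ribosome assembly 4.41, and the 77 main regions of mitochondrial ribosomal proteins 4.47. All of these regions had a peak in every library. No region of these lists was called in any of the 4 genotype comparisons described below. Between 0.00701% and 0.101% of all tested regions were called there, so lists of this size would be expected to hold few calls or none.

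Peaks around the promoters were fewer and of lower rank. There were 71 flanking regions at 43 members, and 30 members had none. Of the 71, 23 had a peak in all 16 libraries, 21 in at most 3 and 11 in a single library. By annotation 32 lay in exons, 16 in introns and 23 between genes. Their peaks were narrow (median 238 bp) and weakly enriched (3.27-fold). A TSS of another protein coding gene was covered by 12 of the 71, with a median score of 3.24, close to that of all promoters, such as the regions at Snapc5 beside Rpl4 (4.90) and at Tlcd1 beside Rpl23a (4.86). A further 3 covered another annotated TSS of the member itself. The remaining 56 covered no protein coding TSS and had a median score of 0.72, although 12 of them were present in every library. Libraries without a peak enter this value as 0, so it does not stand for a place in a list. The strongest of these 12 lay near an upstream alternative start of Rps14 inside Ndst1 (4.46), in an intron of an extended Rpl11 transcript (3.89), in an intron of Rpl3 (3.66), in an exon of Rps9 (3.46) and downstream of Rps19 (3.07).

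The main comparison of the study was loss of p300 in Tet2-deficient cells, P300KO_TET2KO against TET2KO. No main promoter region and none of the 50 flanking regions that could be tested (a peak in at least 4 of 16 libraries) was called by limma at an adjusted p under 0.05, where 0.00701% of all 128335 tested regions were. The unadjusted p was under 0.05 at 4 of 73 main (5.48%) and 3 of 50 flanking regions (6%), against 7.52% of all regions. The per-library median over the main regions was 4.82 ± 0.17 (SD, n = 4) in TET2KO and 4.75 ± 0.09 in P300KO_TET2KO. The median of the fitted differences was −0.10 over the main and 0.01 over the flanking regions, against 0.02 over all tested regions and over all main regions of protein coding genes. With peaks ordered by fold enrichment the medians were −0.60 over the main and −0.12 over the flanking regions, against −0.23 over the main regions of all protein coding genes.

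The lowest p among main regions belonged to Rps6, the target of the S6 kinases. Its scores were 4.58, 5.51, 5.33 and 5.12 in TET2KO and 4.42, 4.42, 4.69 and 4.37 in P300KO_TET2KO. The ranges overlapped only at the lowest TET2KO library, and the difference was −0.66 ± 0.28 (SE, limma adjusted p = 0.611). Rps29 differed by −0.98 (limma adjusted p = 0.631) and Rps12, a small subunit protein, by −0.85 (limma adjusted p = 0.650). Neither passed, and both also moved strongly with the deposit set, as given below.

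A flanking region of Rpl37 was the only region near a member that had a peak in all 4 P300KO_TET2KO libraries and in none of the TET2KO libraries, or the reverse. It lies at chr15:5117281-5117493, 747 bp downstream of the primary TSS at its summit, in an exon, and covers another annotated start of Rpl37. Its scores were 0.83, 1.01, 0.73 and 0.95 in P300KO_TET2KO and 0 in each TET2KO library. It was also found in 3 of 4 P300KO libraries (1.34, 0.93 and 0.84) and in 1 of 4 WT libraries (0.84). All of these values are low, near or below the middle of a list. The difference was 0.88 ± 0.23 (SE), which did not pass adjustment over all regions (limma adjusted p = 0.307). Gains and losses by this rule made up 0.0726% of all merged regions in this comparison. In the other 3 comparisons no member region met the rule (background 0.0236% for P300KO against WT, 0.0213% for TET2KO against WT and 0.0959% for P300KO_TET2KO against P300KO). The other flanking regions of lowest p were those of Rps9 in its exon (0.51, limma adjusted p = 0.511) and of Rpl18 (0.29, limma adjusted p = 0.657).

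**Figure D2:**
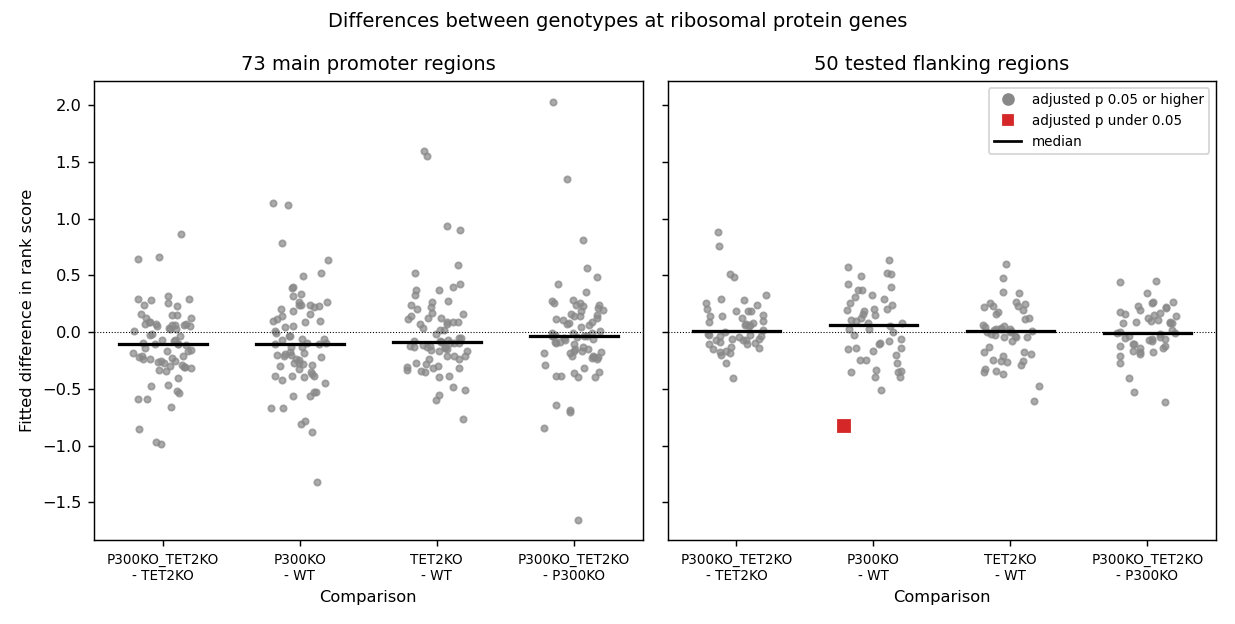
Fitted difference in rank score of each ribosomal protein region in the 4 comparisons, with main promoter regions left and tested flanking regions right (points, regions; black bars, medians; red square, limma adjusted p under 0.05). The medians lie between −0.11 and 0.07, and the only called region is a flanking region in P300KO against WT.

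Loss of p300 in cells with Tet2, P300KO against WT, gave the only call. No main region passed and 1 of 50 flanking regions did, which was lower in P300KO, against 0.101% of all regions in either direction and 0.0748% lower. Unadjusted p-values under 0.05 were found at 7 main (9.59%) and 9 flanking regions (18%), against 12.3% of all regions. The per-library median over main regions was 4.91 ± 0.11 (SD, n = 4) in WT and 4.78 ± 0.16 in P300KO. The median difference over main regions was −0.11 (all protein coding genes −0.05), but it was 0.14 with only peaks of −log10 q of at least 2, 0.081 with ranks among tested regions and 0.015 in deposit set 2 alone, so that its direction was not fixed. The main regions of all protein coding genes had 0.14, 0.083 and 0.025 under these settings. Over the flanking regions it was 0.07.

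The number of flanking regions called rested on the settings. It was 1 under 4 of 15 other settings and in 3 of 16 fits without 1 library, those without WT replicate 1, 2 or 4, and 0 in the rest. Without WT replicate 2 the region called was a flanking region of Rps16, a small subunit protein (0.77, limma adjusted p = 0.0336). That replicate (1.05) was the only WT library with a peak there, while all 4 P300KO libraries had one (0.58 to 0.91).

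Among the main regions of this comparison the lowest p was found at Rps14, the gene of the 5q- syndrome. Its scores were 4.75, 5.96, 5.90 and 5.72 in WT and 5.07, 4.17, 4.70 and 5.16 in P300KO. All WT libraries but replicate 1 lay above the P300KO libraries, and the difference was −0.81 ± 0.30 (SE, limma adjusted p = 0.294). Rpl5 had 5.04, 4.98, 4.46 and 4.58 in WT and 3.95, 4.39, 4.33 and 4.28 in P300KO. Its groups did not overlap, and the difference of −0.53 ± 0.21 did not pass (limma adjusted p = 0.329). Rps21, a small subunit protein whose main region also covers Mir3091, differed in the other direction (0.78, limma adjusted p = 0.354). Rpl11, the partner of Rpl5, differed by −0.36 (limma adjusted p = 0.601) and Rps19 by 0.38 (0.892). Flanking regions of low p that did not pass were an intronic one of Rpl24 (0.64, limma adjusted p = 0.288) and the one over Tlcd1 beside Rpl23a (0.53, limma adjusted p = 0.293).

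**Figure D3:**
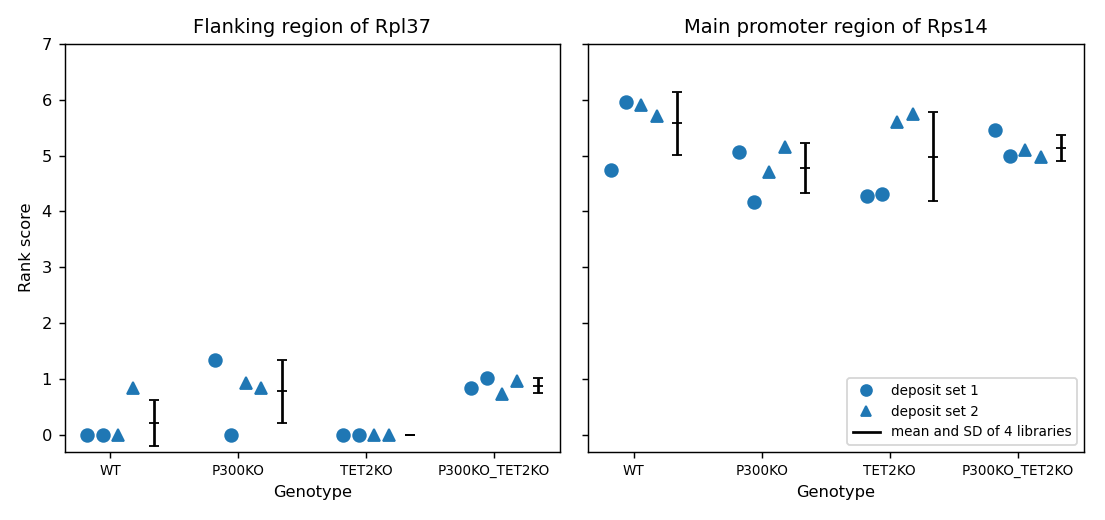
Rank score in each library of the flanking region of Rpl37 described above (left) and of the main promoter region of Rps14 (right), by genotype (circles, deposit set 1; triangles, deposit set 2; crossbars, mean ± SD of 4 libraries). On the left all TET2KO libraries lie at 0 and the P300KO_TET2KO libraries between 0.73 and 1.01, and on the right the P300KO libraries lie between 4.17 and 5.16 and the WT libraries between 4.75 and 5.96.

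Loss of Tet2 alone, TET2KO against WT, gave no call at any member region, against 0.0132% of all regions. Unadjusted p-values under 0.05 stood at 3 main (4.11%) and 3 flanking regions (6%), against 8.59% of all. The median difference was −0.09 over main regions and 0.01 over flanking regions, against −0.02 over the main regions of all protein coding genes. For the members' main regions it was 0.21 with −log10 q of at least 2, 0.13 with ranks among tested regions and 0.051 in deposit set 2 alone, and those of all protein coding genes had 0.21, 0.14 and 0.030. Rps10 was higher in TET2KO by 0.60 (limma adjusted p = 0.534), with 4.18, 5.03, 5.49 and 5.82 in WT and 5.89, 5.24, 5.77 and 6.0 in TET2KO, so that the groups overlapped. Rplp1 differed by −0.51 (0.534) and Rps12 by 0.90 (0.554), both limma adjusted values. The flanking regions of lowest p were those of Rps13 (0.60, limma adjusted p = 0.535), Rps28 inside Ndufa7 (−0.61, 0.537) and Rps10 (−0.47, 0.553).

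Loss of Tet2 in cells without p300, P300KO_TET2KO against P300KO, again gave no call, against 0.0912% of all regions. Unadjusted p-values under 0.05 were found at 6 main (8.22%) and 4 flanking regions (8%), against 7.69% of all. The median difference was −0.03 over main and −0.0039 over flanking regions. Rps3a1, a small subunit protein, had the lowest p. Its scores were 4.79, 9.06, 7.84 and 6.90 in P300KO and 4.77, 4.70, 6.08 and 6.43 in P300KO_TET2KO, a wide spread in both groups with a difference of −1.65 ± 0.62 (SE, limma adjusted p = 0.513). Rps13 differed by −0.64 (0.559) and Rps6 by −0.68 (0.568), both limma adjusted values. The largest difference was that of Rps19, 2.03 ± 0.88 (limma adjusted p = 0.595), with 8.85, 7.25, 7.17 and 6.87 in P300KO and 8.33, 10.66, 9.60 and 9.66 in P300KO_TET2KO. Flanking regions of Rps16 (−0.53, limma adjusted p = 0.50) and Rpl24 (−0.62, limma adjusted p = 0.516) were among those of lowest p. The 4 comparisons share libraries and are not independent.

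Whether the effect of p300 loss depended on Tet2 was tested by the interaction term. No region of any kind was called (0% of all tested regions), and the unadjusted p was under 0.05 at 5 main and 1 flanking regions, against 4.22% of all.

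**Figure D4:**
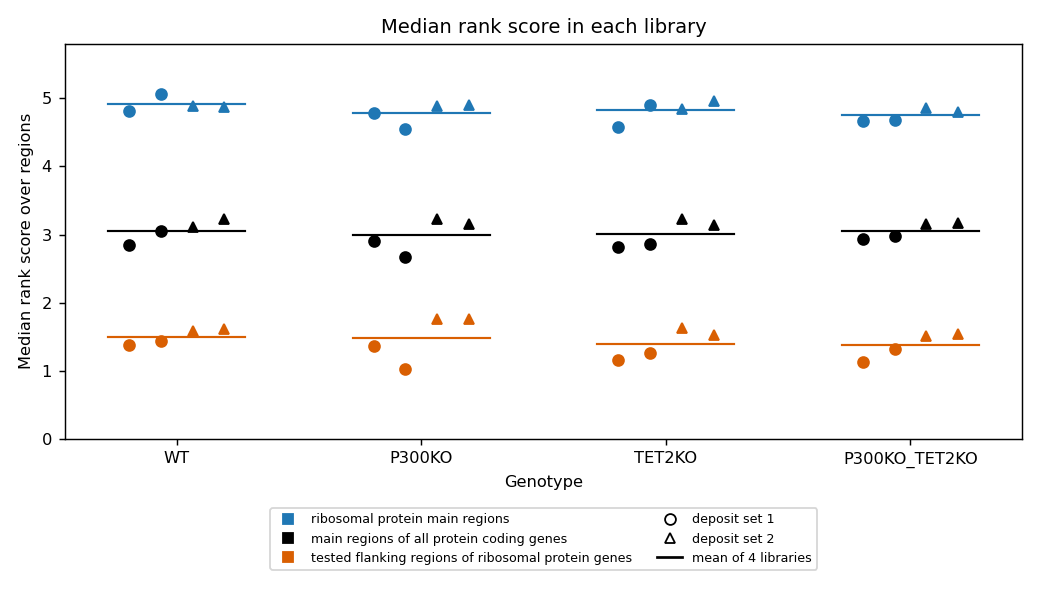
Median rank score in each library by genotype over the main promoter regions of ribosomal protein genes (blue), the main regions of all protein coding genes (black) and the tested flanking regions (orange), with circles for deposit set 1, triangles for set 2 and lines at the mean of 4 libraries. The blue points lie between 4.55 and 5.07 in every genotype, and the black and orange points are higher in deposit set 2.

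The deposit set moved these regions more than any genotype. In set 2, 22 main regions were called higher and 9 lower than in set 1 by limma, where 67.3% of all tested regions were called higher and 1.1% lower. Among the 13922 tested main regions of protein coding genes, 6963 were called higher and 436 lower. The median difference was 0.09 over main regions, against 0.33 over the main regions of all protein coding genes and 0.41 over all tested regions. Of the 50 tested flanking regions, 24 were called higher and 1 lower, a smaller share higher than over all tested regions. Their median difference of 0.39 was close to that of all tested regions. At a given place the score is higher in a longer list, and the lists of set 2 were longer. With only the strongest 50000 peaks of each list, 9699 of 55949 tested regions were called higher in set 2 and 7746 lower. The median difference was then 0.02 over all tested regions and −0.11 over the main regions of all protein coding genes. With all peaks, Rpl37 had the largest difference among main regions, 4.0 ± 0.89 (SE, limma adjusted p = 0.000744). It had 6.53 to 10.11 in set 1 and 10.01 to 13.20 in set 2. Rps12 was higher in set 2 by 2.42 (limma adjusted p = 2.0e-06), with 4.49 to 6.22 in set 1 and 6.97 to 9.02 in set 2. Rps29 moved the other way by −1.88 (limma adjusted p = 5.1e-05). Its scores were 7.05 to 9.72 in set 1 and 5.89 to 6.97 in set 2. What differed between the sets is not stated, and its part in these differences was not tested. Each genotype had 2 libraries in each set.

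**Figure D5:**
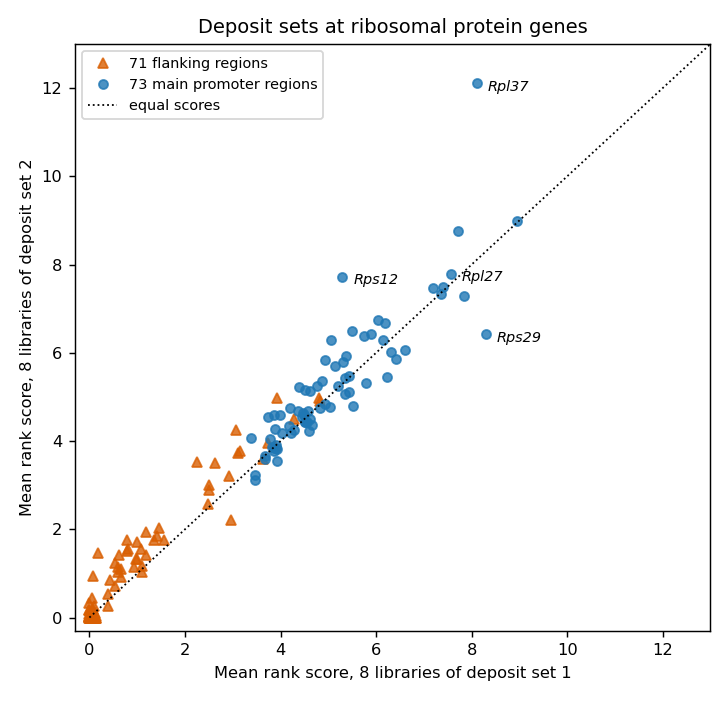
Mean rank score of the 73 main promoter regions (circles) and 71 flanking regions (triangles) over the 8 libraries of deposit set 1 (x axis) and of set 2 (y axis), with a dotted line at equal scores. Rpl37 and Rps12 lie far above the line and Rps29 below it.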

How the data were processed

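The material was 1 ATAC-Seq peak list for each of 16 libraries of mouse HSPCs. Per the methods and labels, the authors trimmed reads with cutadapt 1.9.1, aligned them to mm10 with Bowtie2 2.2.6, removed duplicates, shifted reads for Tn5 and called peaks per library with MACS2 2.1.0. The deposited lists give for each summit the fold enrichment, a ratio to local background, and the −log10 p and −log10 q, as computed by the authors. Read depth is unknown from these files, and peak numbers limit what a rank can show.

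Summits of 1 interval were counted as 1 peak. Regions were merged where peaks shared at least 1 bp. Scores were tested with limma 3.58.1 in R 4.3.3 (genotype and deposit set as terms, eBayes with trend) on 128335 regions with a peak in at least 4 of 16 libraries, adjusted by Benjamini-Hochberg over all of them. P-values measure the spread between pooled libraries. The fit was also run on simulated data, with independent normal noise and shifts planted only at regions of higher mean score. That run does not show how the fit performs at weak flanking regions. Genes and TSSs were from GENCODE M21, and sequences from GRCm38.p6 and RefSeq. The members, gene lists, named genes and alternatives were chosen with earlier results of these data known. Named were anemia, stalk and laminin receptor genes, the 5 highest and 5 lowest members, the 3 lowest p-values per comparison and kind of region, and every call, except that some genes, that of the called flanking region among them, are not reported here. Rpl7, Snapc5, Ndst1 and the strongest flanking regions were named after their values were seen.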

Additional observations from a re-analysis of the deposited data

Results flagged for a closer look

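Within a genotype, 1 of 4 libraries stood apart from the other 3 (by Dixon's test at its 95% critical value) in 10 of 156 sets of values examined. For normally distributed values chance alone gives about 1 in 20. That rate does not hold for flanking regions without a peak in some libraries. A set with a peak in 1 of 4 libraries is always flagged, and a set without any peak never is. Among main promoter regions, Rps26 scored 5.35 in WT replicate 4 (others 6.42 to 6.59), Rplp1 5.77 in WT replicate 2 (others 4.77 to 4.87), Rpl37a 3.22 in P300KO replicate 2 (others 3.45 to 3.47), Rps13 6.70 in P300KO replicate 2 (others 5.47 to 5.59) and Rps6 4.69 in P300KO_TET2KO replicate 3 (others 4.37 to 4.42). Among flanking regions, single WT libraries had a peak where the other 3 had none at Rpl37 (0.84, replicate 4), Rpl18 (0.37, replicate 4) and Rps16 (1.05, replicate 2), and so had TET2KO replicate 3 at Rpl18 (0.61). The Rps28 region scored 0.79 in P300KO_TET2KO replicate 1 (others 1.40 to 1.42). No per-library median over members and no count of flanking regions was set apart in this way, and no region passed the interaction test.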

How the results depend on the processing

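No main promoter region was called in any of the 4 comparisons under any alternative run, and no member region was called for the interaction. The 1 flanking call of P300KO against WT fell to 0 with −log10 q of at least 2, peaks ranked by fold enrichment, a linear percentile, ranks among tested regions, no filter on regions, at least 50% of a region covered, no deposit set term, the replicate block, either deposit set alone and flanking regions within 1 kb. Without 1 library it was 0 to 1. For main regions the median difference of P300KO against WT was 0.14 with −log10 q of at least 2, 0.081 with ranks among tested regions and 0.015 in deposit set 2 alone, and that of TET2KO against WT 0.21, 0.13 and 0.051, close to those of all protein coding genes (0.14, 0.083 and 0.025, and 0.21, 0.14 and 0.030). Ranked by fold enrichment, the medians were −0.60 (main) and −0.12 (flanking) for P300KO_TET2KO against TET2KO, and −0.39 and −0.11 for P300KO_TET2KO against P300KO, while the main regions of all protein coding genes had −0.23 in the first and −0.16 in the second of these comparisons. For flanking regions of P300KO against WT the median was −0.092 with a peak in 16 of 16 libraries and −0.075 within 1 kb. The causes were not tested.

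Gained or lost regions were also counted with a peak in 3 or more libraries of one genotype and in no more than 1 of the other. They then numbered 3, 3, 1 and 1 in the 4 comparisons, in the order of the report. Within a single deposit set, a peak was required in both libraries of one genotype and in neither of the other. They then numbered 3, 3, 3 and 1 in set 1, and 2, 1, 0 and 2 in set 2. With the strongest 50000 peaks they numbered 0 in the first and 1 in the fourth comparison, and with at least 50% covered 1 in P300KO against WT. Leaving out 1 library gave 0 to 1 for P300KO against WT. The share of all merged regions under these other settings is not given, so these counts cannot be read as a result about the members. The sign of 4 named differences without a call changed: ranked by fold enrichment the Rps9 flanking region (−0.042) and the Rpl23a one (−0.064), and in deposit set 2 alone the Rps13 (−0.051) and Rps28 (0.10) ones.

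The libraries of different genotypes are linked only by a replicate number, and same-numbered ones share a deposit set. Residuals of same-numbered libraries correlated from −0.24 to 0.04 over 24 pairs, and 0 of 16 libraries correlated best with its own number. Fitting genotype and deposit set lowers the residual correlations within a set. These values therefore cannot decide whether same-numbered libraries were paired. With the replicate block the calls over all regions went from 130 to 59 for P300KO against WT, from 117 to 71 for P300KO_TET2KO against P300KO, from 17 to 8 for TET2KO against WT and from 9 to 1 for P300KO_TET2KO against TET2KO. At the members it took the flanking regions called in P300KO against WT from 1 to 0 and changed no other call.

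Without read counts, a rank score shows a region's place in a list and no amount of accessibility.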
